A study of Homo sapiens with 8 samples.

Results

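Shown here are 10 members of the Eph receptor and ephrin family in HT-29, a human colorectal adenocarcinoma line: the receptors EPHA1, EPHA2, EPHB2, EPHB3, EPHB4 and EPHB6 and the ephrins EFNA1, EFNA4, EFNB1 and EFNB2. The 10 genes were taken by symbol, each matched 1 of the 48162 gene identifiers in the count tables, and all 10 had enough counts to be among the 14228 genes tested. The family has 14 receptor and 8 ligand genes in all, and the other 12 are given after the members. Wild-type cells (WT) gave 4 libraries and cells whose MIEN1 gene had been targeted with Cas9 (MIEN1_KO) gave 4, with no other treatment, each made from poly-A RNA pooled from 4 dishes. The edited cells had been electroporated with plasmids for Cas9 and for guides on either side of the MIEN1 target, selected with puromycin and grown from single cells. No cloning or selection is described for WT. How many clones the edited libraries represent is not given in the sources used here, so the edit, the cloning and any batch cannot be told apart in any difference below. Replicates are described as independent, and p-values rest on 4 libraries against 4.

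Eph receptors are receptor tyrosine kinases that bind ephrins on the surface of a neighbouring cell. A-type ephrins are held in the membrane by a lipid anchor and B-type ephrins span it, and binding signals both into the cell with the receptor (forward) and into the cell with the ephrin (reverse), usually steering adhesion, repulsion and the sorting of cells. In the intestine EPHB2 and EPHB3 are known as targets of Wnt signalling in the crypt base, with ephrin-B ligands toward the crypt mouth, and the opposing gradients keep cells in their place.

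Total counts ran from 21940903 to 25148790 per library. Counts of MIEN1 over the 4 libraries summed to 2080 in WT and 73 in MIEN1_KO (21.6 ± 1.36 against 0.805 ± 0.186 CPM, mean ± SD, n = 4, edgeR adjusted p = 1.0e-11, exact two-sided permutation p = 0.0286, the smallest possible here). CPM is the count divided by the scaled library total in units of 1e6. MIEN1_KO replicate 4 stood apart from the other edited libraries, with a scatter of counts (chi-square per degree of freedom) of 29.3 to 33.5 against them and 3.42 to 13.2 among them. Of 12 colon epithelium markers 4 were higher, 5 lower and 3 not called in MIEN1_KO, so 75.0% were called, beside 41.7% of all tested genes. Their summed level was 11123 to 11656 CPM in WT and 13970 to 17659 CPM in MIEN1_KO libraries, mostly the keratin KRT8 (7237 and 10237 CPM). LGALS4 fell from 803 to 377 CPM. EPCAM (464 and 446 CPM) and VIL1 (172 and 168 CPM) were not called, while the intestinal factors CDX1 and CDX2 fell from 79 and 594 counts over the WT libraries to 1 and 25. Fibroblast markers summed to 2.18 to 3.45 CPM in WT and 3.51 to 5.05 CPM in MIEN1_KO libraries, mostly COL1A1, and COL3A1 was at 0 in all 8. The 5 endothelial markers found summed to 1.98 to 2.82 CPM in WT and 0.741 to 1.16 CPM in MIEN1_KO, mostly TEK, with KDR at 0 and CDH5 at 0 and 1 counts. The part of these markers in the results below was not tested. Leukocyte PTPRC had 0 counts in WT and 2 in MIEN1_KO, and the sum of that list (893 to 933 and 722 to 782 CPM) was nearly all LYZ, which some epithelial cells also make.

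Most of the 10 members differed between the groups, in both directions. By edgeR's quasi-likelihood test with an adjusted p below 0.05, 6 were higher in MIEN1_KO (EPHA1, EPHA2, EPHB4, EPHB6, EFNB1 and EFNB2), 2 were lower (EPHB3 and EFNA1) and 2 were not called (EPHB2 and EFNA4). Over all tested genes 41.7% were called, 21.0% higher and 20.7% lower. The median log2 fold change of the members (MIEN1_KO over WT) was 0.32, against -0.02 for all tested genes. The groups did not overlap in 7 members, which held for 41.0% of all tested genes. EPHB6 was the 1 member called with at least a 2-fold change, a class that held 5.58% of all tested genes.

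The calls also went with base composition. Among tested genes with a transcript GC content of 60% or more, 54.8% were called higher and 5.98% lower. From 55% to 60% GC, where EPHA1, EPHB2, EFNA1 and EFNA4 lie, the shares were 40.8% and 8.80%. Below 40% GC they were 2.08% and 44.1%. The longest transcripts of the members held between 50.0% (EFNB2) and 62.2% (EPHB3) GC, 9 of the 10 above 55%. With the trend removed from each library (a smooth curve of each library's deviation on GC, entered as an offset in edgeR), 5 members were higher, 2 lower and 3 not called, beside 36.6% called, 18.2% higher and 18.4% lower, of all genes. The median of the members then fell to 0.08. EPHB4 was the member that lost its call. What produced the trend was not tested, and each member is given below with both values. Gene positions are on GRCh38, from GENCODE release 29.

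The promoter windows printed here differ in base composition. They are those of the members that moved most, of EPHB2 as the member with the fewest counts and of EFNB1 as the leading ligand. RefSeq sequences (GRCh38.p14) from 250 bases before to 50 after the gene start were found for all 10 members and are printed 5′ to 3′ on the gene's strand, with capitals marking GC boxes (GGGCGG or its reverse complement CCGCCC, overlaps merged). The windows are chr7:142862506-142862805 (plus strand), chr3:184561535-184561834 (plus), chr1:22710588-22710887 (plus) and chrX:68828771-68829070 (plus).
EPHB6: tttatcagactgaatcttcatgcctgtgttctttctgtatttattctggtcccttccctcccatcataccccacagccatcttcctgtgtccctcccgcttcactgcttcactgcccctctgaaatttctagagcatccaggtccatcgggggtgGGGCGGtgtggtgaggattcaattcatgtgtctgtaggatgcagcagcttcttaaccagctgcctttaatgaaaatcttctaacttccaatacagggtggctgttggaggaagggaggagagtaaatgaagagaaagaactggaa
EPHB3: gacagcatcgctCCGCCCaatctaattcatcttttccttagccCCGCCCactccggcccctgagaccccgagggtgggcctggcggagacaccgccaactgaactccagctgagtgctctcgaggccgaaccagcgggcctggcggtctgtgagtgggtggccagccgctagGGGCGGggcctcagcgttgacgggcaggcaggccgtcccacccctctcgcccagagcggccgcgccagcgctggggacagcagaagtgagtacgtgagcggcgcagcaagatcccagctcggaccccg
EPHB2: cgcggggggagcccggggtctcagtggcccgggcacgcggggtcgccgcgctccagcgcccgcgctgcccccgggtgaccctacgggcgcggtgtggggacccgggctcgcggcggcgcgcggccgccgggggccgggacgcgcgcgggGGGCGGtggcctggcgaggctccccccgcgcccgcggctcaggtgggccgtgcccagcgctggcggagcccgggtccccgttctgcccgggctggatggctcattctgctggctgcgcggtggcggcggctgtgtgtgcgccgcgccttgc
EFNB1: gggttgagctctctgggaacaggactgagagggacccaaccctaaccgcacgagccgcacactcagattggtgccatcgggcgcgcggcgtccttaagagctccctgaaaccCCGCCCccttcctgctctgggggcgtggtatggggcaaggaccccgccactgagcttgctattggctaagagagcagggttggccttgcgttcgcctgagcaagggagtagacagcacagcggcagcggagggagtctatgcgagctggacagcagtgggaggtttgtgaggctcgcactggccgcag

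The EPHB6 window was 48.0% GC with 3 CpG dinucleotides, the fewest of the 10 members, beside 26 in EPHB3, 49 in EPHB2 and 18 in EFNB1. It begins inside the gene as GENCODE draws it, whose first base is at 142855061. Its composition is thus that of a start inside the GENCODE gene, and the sequence before the GENCODE start was not examined. The EFNA1 window (from 155127626) also begins inside its gene (from 155127460). GC boxes numbered 1 in EPHB6, 3 in EPHB3, 1 in EPHB2 and 1 in EFNB1, and all 10 members had at least 1, beside 44.6% of 27305 promoter windows of this length. These shares are not matched in GC content. All member windows but EPHB6 (48.0%) and EFNA4 (58.3%) held 62.0% GC or more, and the median over all windows was 58.3%. The TCF/LEF letters CTTTGAA, with the variants CTTTGAT, besides CTTTGTA, and also CTTTGTT, searched on both strands, were in 13.9% of all windows and, among the members, in EFNA4 alone. The AP-1 letters TGANTCA were in 7.76% of all windows and in 0 of the 10. Such matches are letters in a short window and not binding sites, and their absence says nothing of distant elements.

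EPHB6 (ENSG00000106123, chr7:142855061-142871094, plus strand) showed the largest rise. This receptor binds ephrin-B ligands but lacks kinase activity, and signals through partner receptors. Its levels were 89.9, 77.0, 78.6 and 89.2 CPM in WT replicates 1 to 4 and 187.5, 155.5, 198.3 and 226.1 CPM in MIEN1_KO replicates 1 to 4. Each edited library was above each WT library, with replicate 2 lowest and replicate 4 highest of the edited ones. The level rose 2.29-fold (log2 fold change 1.20, SE 0.10, edgeR adjusted p = 9.2e-07) and the rise was 0.90 with the GC trend removed (SE 0.06, edgeR adjusted p = 2.4e-08). Without MIEN1_KO replicate 4 the log2 fold change was 1.13.

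EPHB3 (ENSG00000182580, chr3:184561784-184582409, plus strand) showed the largest fall among the members. It is an ephrin-B receptor of crypt base cells and, in mice, of Paneth cell positioning. WT replicates 1 to 4 stood at 36.0, 32.2, 31.6 and 34.7 CPM and MIEN1_KO replicates 1 to 4 at 18.6, 14.8, 18.8 and 20.2 CPM. No edited library reached the lowest WT library. The mean in MIEN1_KO was 53.8% of that in WT (fitted log2 fold change -0.89, SE 0.09, edgeR adjusted p = 5.9e-06). With the GC trend removed the difference was -1.22 (SE 0.06, edgeR adjusted p = 4.1e-09).

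EPHB2 (ENSG00000133216, chr1:22710839-22921500, plus strand), the other crypt receptor, had the lowest level of the members. Its levels were 3.77, 3.66, 3.37 and 3.61 CPM in WT and 3.12, 2.67, 3.19 and 5.33 CPM in MIEN1_KO replicates 1 to 4. Edited replicates 1, 2 and 3 lay below all WT libraries and MIEN1_KO replicate 4 lay above them, so the groups overlapped. The difference was not called (log2 fold change -0.02, SE 0.18, edgeR adjusted p = 0.951). Its 95% interval from limma-voom ran from -0.46 to 0.32. Without MIEN1_KO replicate 4 the value was -0.25 (edgeR adjusted p = 0.146).

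EPHB4 (ENSG00000196411, chr7:100802565-100827521, minus strand), an ephrin-B2 receptor best known from veins and often abundant in colorectal tumours, had the most counts of any receptor. It stood at 383.4, 344.4, 357.7 and 388.8 CPM in WT and 454.9, 372.8, 457.9 and 500.0 CPM in MIEN1_KO replicates 1 to 4. MIEN1_KO replicate 2 fell inside the WT range and the other edited libraries lay above it. The rise was small (log2 fold change 0.28, SE 0.09, edgeR adjusted p = 0.0188). It was -0.01 with the GC trend removed (edgeR adjusted p = 0.904) and missed the threshold without WT replicate 2 (adjusted p = 0.0594) or WT replicate 3 (adjusted p = 0.0504). SLC12A9, on the opposite strand, overlaps EPHB4 by 702 bases and was at 96.2 CPM in WT and 123.1 CPM in MIEN1_KO. Whether counting used strand is not known here, so reads from the shared stretch cannot be told apart.

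The A-type receptors among the members, EPHA2 and EPHA1, both rose. EPHA2 (ENSG00000142627, chr1:16124337-16156087, minus strand), which binds ephrin-A1 and is abundant in many carcinomas, was at 289.7, 251.2, 264.6 and 288.8 CPM in WT and 378.0, 325.3, 372.0 and 403.0 CPM in MIEN1_KO replicates 1 to 4. The groups did not overlap, and the log2 fold change was 0.43 (SE 0.08, edgeR adjusted p = 5.8e-04). Removing the GC trend left 0.16 (SE 0.05, edgeR adjusted p = 0.0140).

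EPHA1 (ENSG00000146904, chr7:143390289-143408892, minus strand), an epithelial receptor of the same class, was at 61.9, 52.6, 55.03 and 57.6 CPM in WT and 93.2, 81.2, 91.4 and 103.2 CPM in MIEN1_KO replicates 1 to 4. Here too the groups did not overlap. Its log2 fold change was 0.70 (SE 0.08, edgeR adjusted p = 1.7e-05), and 0.45 with the GC trend removed (SE 0.05, edgeR adjusted p = 4.8e-06). EPHA1 overlaps ZYX, a focal adhesion gene on the opposite strand, by 823 bases, and ZYX was at 131.9 CPM in WT and 224.1 CPM in MIEN1_KO. How far ZYX reads entered the EPHA1 count was not tested.

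Among the ligands, the B-type ephrins rose. EFNB1 (ENSG00000090776, chrX:68828997-68842147, plus strand), on the X chromosome, stood at 298.4, 263.9, 275.4 and 295.3 CPM in WT and 423.0, 393.7, 450.0 and 498.6 CPM in MIEN1_KO replicates 1 to 4. Every edited library exceeded every WT library. The level rose 1.56-fold (log2 fold change 0.64, SE 0.08, edgeR adjusted p = 2.8e-05), and the log2 value was 0.36 once the GC trend was removed (SE 0.04, edgeR adjusted p = 2.0e-05).

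EFNB2 (ENSG00000125266, chr13:106489731-106535662, minus strand), the partner of EPHB4 in vessels, had the lowest GC content of the members and its value moved least when that trend was removed. It was at 98.0, 95.8, 97.8 and 92.9 CPM in WT and 121.6, 136.2, 133.9 and 106.0 CPM in MIEN1_KO replicates 1 to 4. MIEN1_KO replicate 4 was here the lowest of the edited libraries, the reverse of its place for the other 9 members, and still above all WT libraries. The log2 fold change was 0.37 (SE 0.08, edgeR adjusted p = 0.0021), 0.36 with the GC trend removed (SE 0.07, edgeR adjusted p = 0.0013), and 0.46 without MIEN1_KO replicate 4.

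Of the A-type ligands among the members, EFNA1 fell and EFNA4 was not called. EFNA1 (ENSG00000169242, chr1:155127460-155134857, plus strand), the best known partner of EPHA2 and an early gene of the response to inflammatory cytokines, was at 20.3, 19.4, 21.9 and 19.3 CPM in WT and 15.1, 16.0, 12.2 and 17.5 CPM in MIEN1_KO replicates 1 to 4. The groups did not overlap, and the level fell by 0.41 on the log2 scale (SE 0.10, edgeR adjusted p = 0.0051). With the GC trend removed it fell by 0.63 (SE 0.09, edgeR adjusted p = 7.8e-05).

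EFNA4 (ENSG00000243364, chr1:155063731-155069553, plus strand), a ligand of several EphA receptors, was at 9.33, 9.54, 8.88 and 10.3 CPM in WT and 9.75, 9.84, 9.34 and 12.6 CPM in MIEN1_KO replicates 1 to 4. Only MIEN1_KO replicate 4 left the WT range. The log2 fold change of 0.12 was not called (SE 0.11, edgeR adjusted p = 0.369, 95% interval from limma-voom -0.11 to 0.34). It was 0.04 without MIEN1_KO replicate 4 (edgeR adjusted p = 0.749). Removing the GC trend turned its sign, to -0.09 (edgeR adjusted p = 0.415). An annotated gene that runs from EFNA4 into EFNA3 on the same strand, AL691442.1, shares 5806 bases with EFNA4 and has 0 counts in all libraries. Reads that lie in both genes may have been set aside in counting, and the counting mode is not given.

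**Figure D1:**
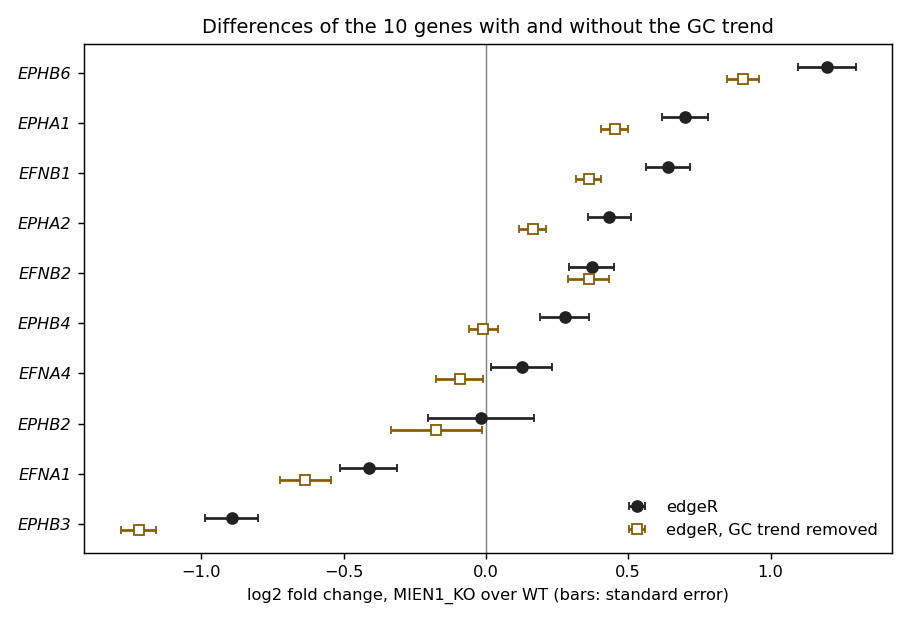
Log2 fold change (MIEN1_KO over WT, bars are the standard error) of each member from edgeR as fitted (filled circles) and with the GC trend removed (open squares). The values range from -0.89 to 1.20 as fitted, the squares lie to the left of the circles for all 10 members, and EPHB4 moves from 0.28 to -0.01.

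Each library's GC trend was taken as the median deviation of 2039 genes of 60% GC or more minus that of 5024 under 45%. Deviations were from each gene's mean over the 8 libraries, so the measure is relative. Over the WT libraries it was -0.41 to -0.15 (log2). In MIEN1_KO replicates 1 to 4 it was 0.22, -0.003, 0.21 and 0.64. EPHA1 and EPHA2 put all 8 libraries in the same order as this measure, within the groups as well as between them. EPHB6 and EFNB1 put 6 of 8 at the same rank. All edited libraries exceeded all WT libraries in this measure. EPHB3 and EFNA1 fell without overlap, so their 0 of 8 at the same rank was fixed in advance and says nothing of GC. Ranked within each group of 4, EPHB6 and EFNB1 matched 4 in WT and 2 in MIEN1_KO. EPHB3 and EPHB4 matched 2 and 2, and EFNA1 matched 0 and 1. MIEN1_KO replicate 4, the highest library in the GC measure, was the highest edited library for 9 members. Replicate 2, the lowest edited library in that measure, was the lowest edited library for 7. How much of each difference this accounts for was not tested beyond the fit with the trend removed.

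Ratios of members within a library do not depend on the scaling between libraries. The pairs were chosen after the values were seen and carry no test. Per kb of exon, EPHB6 was 2.13, 2.04, 2.12 and 2.19 times EPHB3 in WT and 8.57, 8.91, 8.99 and 9.53 times EPHB3 in MIEN1_KO replicates 1 to 4. EPHB3 stood at 0.125 to 0.133 of EPHB4 over the WT libraries and at 0.0565 to 0.0582 over the edited ones. Both genes are GC-rich (62.2% and 60.8%). EFNB1 was 1.47 to 1.51 times EPHB4 in WT and 1.81 to 2.05 times in MIEN1_KO. EFNB2 over EPHB4 overlapped between the groups, at 0.306 to 0.357 and 0.272 to 0.468, and so did EFNB1 over EFNB2, at 4.17 to 4.81 and 4.38 to 7.12. EFNB2 (50.0% GC) is not matched in GC to EPHB4 (60.8%) or EFNB1 (60.5%), so both ratios carry the GC trend. With it removed the log2 fold changes were 0.36 for EFNB2, -0.01 for EPHB4 and 0.36 for EFNB1. In the A class, EFNA1 was 0.110 to 0.136 of EPHA2 in WT and 0.0539 to 0.0806 in MIEN1_KO, and these ranges were apart.

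Levels can be set against each other only per length, here CPM per kb of the union of a gene's exons. In WT the receptors ran in the order EPHA2 (65.8 ± 4.55 CPM per kb), EPHB4 (57.3 ± 3.27), EPHB6 (15.7 ± 1.28), EPHA1 (11.99 ± 0.844), EPHB3 (7.42 ± 0.459) and EPHB2 (0.288 ± 0.0135). EPHA2 and EPHB4 were not apart in WT, since their library ranges overlapped, and with the length of the longest transcript EPHB4 came first (72.9 against 69.0 CPM per kb). The order of these 6 was the same in MIEN1_KO, with EPHB6 at 36.0 ± 5.48 and EPHB3 at 3.995 ± 0.505 CPM per kb. EPHB6 took 9.89% ± 0.194 of the receptor sum in WT and 16.5% ± 0.792 in MIEN1_KO, EPHB3 4.67% ± 0.127 and 1.83% ± 0.0490, and EPHB4 36.1% ± 0.392 and 31.8% ± 0.437 (SD, n = 4).

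Ligand levels were led by EFNB1, at 85.5 ± 4.96 CPM per kb in WT and 133.2 ± 13.45 in MIEN1_KO, which was 48.8% ± 0.3675 of the ligand sum in WT and 49.9% ± 0.459 in MIEN1_KO. EFNB2 followed among the members (19.2 ± 0.474 and 24.8 ± 2.76 CPM per kb). EFNA1 and EFNA4 overlapped in WT (7.97 ± 0.481 and 7.54 ± 0.485) and stood apart in MIEN1_KO (5.99 ± 0.866 and 8.23 ± 1.20), where the range of EFNA4 lay above that of EFNA1. This depends on the length used. With the longest transcript EFNA1 and EFNA4 were at 10.5 ± 0.634 and 7.54 ± 0.485 in WT, and at 7.89 ± 1.14 and 8.23 ± 1.20 in MIEN1_KO. Summed over the family, receptors were at 158.8 ± 10.3 CPM per kb in WT and 218.1 ± 23.9 in MIEN1_KO, and ligands at 175.0 ± 9.17 and 266.9 ± 28.5. These sums still carry the GC trend. With it removed the log2 fold changes of the leading receptors were 0.16 (EPHA2) and -0.01 (EPHB4). Those of the leading ligands were 0.36 (EFNB1) and 0.26 (EFNA2).

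**Figure D2:**
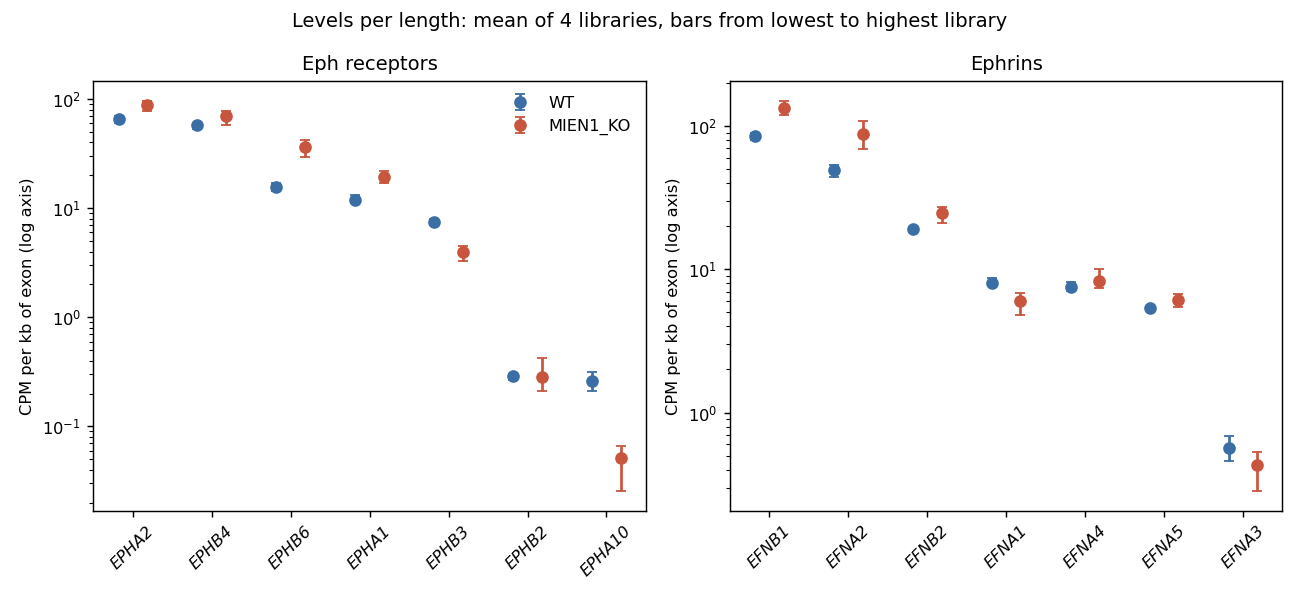
Level per kb of exon (log axis) of the 7 receptors and 7 ephrins with enough counts to be tested, as the mean of 4 libraries with bars from the lowest to the highest library. EPHA2 and EPHB4 lead the receptors and EFNB1 and EFNA2 the ligands in both groups, and EPHA10 is the lowest of the receptors shown, with a range that overlaps that of EPHB2 in WT and not in MIEN1_KO.

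The 12 other family genes split into 4 that were tested and 8 with too few counts. EPHA10, a receptor without kinase activity like EPHB6, moved the opposite way to it: 50, 44, 49 and 58 counts in WT and 13, 5, 9 and 11 in MIEN1_KO replicates 1 to 4 (log2 fold change -2.32, SE 0.25, edgeR adjusted p = 9.3e-06), with no overlap. EFNA2, a lipid-anchored ligand, rose from 46.4 ± 4.06 to 83.7 ± 15.4 CPM (0.85, SE 0.12, edgeR adjusted p = 7.0e-05). With 71.1% GC its rise shrank to 0.26 with the trend removed (edgeR adjusted p = 0.0039), the largest such loss among the tested family genes. EFNA2 took 27.9% of the ligand sum per kb in WT and 32.8% in MIEN1_KO.

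EFNA5, at 30.4 ± 0.486 and 34.7 ± 3.14 CPM, was not called (0.19, edgeR adjusted p = 0.0544) although its groups did not overlap. It was called at 0.33 with the GC trend removed (adjusted p = 9.0e-04) and at 0.26 without MIEN1_KO replicate 4 (adjusted p = 0.0016). EFNA3 was at 1.08 ± 0.188 and 0.830 ± 0.206 CPM (-0.38, edgeR adjusted p = 0.215), and at -0.68 with the GC trend removed (adjusted p = 0.0331). Of EPHA4 there were 16 counts in WT in all and 1 in MIEN1_KO, a ratio of 15.9 with an exact (Clopper-Pearson) 95% interval of 2.47 to 666.7. EPHA3, EPHA5, EPHA7, EPHA8, EPHB1 and EFNB3 had at most 4 counts over all 8 libraries. EPHA6 had 0, which allows up to 3 counts, or 0.0320 CPM in WT and 0.0322 CPM in MIEN1_KO. Intervals and limits of this kind cover counting error only.

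EPHB6 and EPHA1 lie 519.2 kb apart on chromosome 7 and both rose, while EFNA4 and EFNA1 lie 57.9 kb apart on chromosome 1, where EFNA1 fell and EFNA4 was not called. The neighbour counts that follow leave out all members, so EPHA1 is not among the neighbours of EPHB6. Of 15 other tested genes that start within 1 Mb of EPHB6, 6 were higher, 6 lower and 3 not called. Their median log2 fold change was -0.14 beside the 1.20 of EPHB6. Around EPHB3, 6 of 25 were higher, 7 lower and 12 not called, with a median of -0.00 beside -0.89. Of all tested genes 41.7% were called, 21.0% higher and 20.7% lower. The median around EFNB1 was -0.17 over 5 genes, and around EPHB4 it was 0.15 over 51. Windows of neighbouring members share genes, and no test was made on them.

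Genes that carry or end Eph and ephrin signals were called in both directions. The share called was 61.1% of the forward signalling list, 53.8% of the reverse list and 29.4% of the shedding and dephosphorylation list, beside 41.7% of all tested genes. Of 36 tested forward signalling genes (of 42 listed) 12 were higher, 10 lower and 14 not called, with a median of 0.04. The 4 with the smallest p all fell: the SRC-family kinase FYN (17.7 ± 1.26 to 1.43 ± 0.156 CPM, log2 fold change -3.63), the adaptor GRB10 (11.8 ± 0.228 to 1.01 ± 0.195 CPM, -3.52), KALRN (18.7 to 9.04 CPM, -1.05) and the Rac-inhibiting CHN2 (10.8 to 5.39 CPM, -0.999). The highest of the 4 edgeR adjusted p-values was 9.5e-07. That count was 14 called in place of 22 without WT replicate 2 and also without WT replicate 3, and 6 in place of 10 were lower with the GC trend removed. With upper-quartile factors 7 in place of 12 were higher, as without either of those libraries.

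Among 13 reverse signalling genes 5 were higher, 2 lower and 6 not called. PDZRN3, a ubiquitin ligase with PDZ domains, fell (-1.18, edgeR adjusted p = 3.2e-05), and the polarity factor PARD6A (0.81, adjusted p = 1.8e-04), RGS3 (0.42, adjusted p = 5.2e-04) and the phosphatase PTPN13 (0.65, adjusted p = 6.7e-04) rose. With the GC trend removed PARD6A was at 0.46 (adjusted p = 3.5e-04) and RGS3 at 0.20 (adjusted p = 0.0269). Of 17 genes of shedding and dephosphorylation 1 was higher, 4 lower and 12 not called. The matrix protease MMP14 fell (6.86 ± 0.399 to 3.64 ± 0.597 CPM, -0.92, edgeR adjusted p = 5.7e-05) and the phosphatase PTPN1 rose (101.2 to 127.2 CPM, 0.33, adjusted p = 5.2e-04). The phosphatase ACP1 (-0.25, adjusted p = 0.0113) and the sheddase ADAM10 (-0.28, adjusted p = 0.0143) fell, and neither was called with the GC trend removed (adjusted p = 0.199 and 0.411). The number called in this list was 2 without WT replicate 2, 3 without WT replicate 3, 3 without MIEN1_KO replicate 1 and 8 without MIEN1_KO replicate 4, in place of 5. Those higher numbered 3 with the GC trend removed and 5 without MIEN1_KO replicate 4, in place of 1, and 2 in place of 4 were lower with the trend removed.

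Wnt and TCF target genes, the class to which EPHB2 and EPHB3 are usually assigned, changed in both directions. Of 14 tested (of 18 listed) 9 were higher, 2 lower and 3 not called. So 78.6% were called, beside 41.7% of all tested genes (21.0% higher and 20.7% lower). The stem cell receptor LGR5 fell (25.2 ± 2.36 to 8.84 ± 1.85 CPM, -1.51, edgeR adjusted p = 6.7e-07), as EPHB3 did, while the feedback inhibitor NKD1 (1.07 ± 0.316 to 4.95 ± 0.935 CPM, 2.21, adjusted p = 1.5e-06), the factor SP5 (16.6 ± 1.99 to 47.0 ± 12.03 CPM, 1.50, adjusted p = 5.2e-06) and TCF7 (78.5 ± 3.28 to 115.6 ± 11.46 CPM, 0.56, adjusted p = 7.9e-05) rose. With the GC trend removed 8 were higher and 3 lower.

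Other receptor tyrosine kinases had 5 higher, 7 lower and 6 not called of 18 tested (of 40), with a median of 0.01 and a median GC content of 51.8%. The share called was 66.7%, beside 41.7% of all tested genes. TEK (-1.77), AXL (-0.80), INSR (-0.55) and FGFR4 (-0.67) fell, each with an edgeR adjusted p of 3.1e-04 or less. FGFR4 was at -1.04 with the GC trend removed. Semaphorins and plexins, the other large family of guidance cues, had 9 higher, 2 lower and 12 not called of 23 tested (of 29), with a median of 0.18 and a median GC content of 58.8%, near the 59.9% of the members. Their share called was 47.8%, near the 41.7% of all tested genes. PLXND1 (1.82), SEMA6B (3.28), PLXNA1 (0.60) and PLXNB2 (0.53) rose, each with an edgeR adjusted p of 1.3e-04 or less. PLXNA1 with the GC trend removed was at 0.30 (adjusted p = 0.0063) and PLXNB2 at 0.18 (adjusted p = 0.0396). Whether the members differed from these classes was not tested. Without MIEN1_KO replicate 4, 8 of the other kinases were higher in place of 5, and over all genes 3529 in place of 2981. Just 1 semaphorin or plexin in place of 2 was lower without WT replicate 2, 3 or 4 or MIEN1_KO replicate 2 or 3. Over all genes those fits gave 2197 to 2990 lower, in place of 2952. With the GC trend removed 4 semaphorins or plexins were lower.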

How the data were processed

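RNA-seq counts of 8 HT-29 libraries (4 WT, 4 MIEN1_KO, grouped by sample title) were analysed. Values in the deposited files are unnormalized whole-number counts by gene. The submitters' processing notes name TopHat2 2.0.9, HTSeq 0.6.1 and the GRCh38 build. Annotation release, counting mode and use of strand are not given in these sources. Symbols, positions, exon lengths and transcript GC content came from GENCODE release 29 (45342 of 48162 identifiers, 2820 without a name).

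All genes were fitted with edgeR 4.0.16 (filterByExpr, TMM factors 0.929 to 1.03, robust quasi-likelihood, group only, two-sided) and p-values were adjusted (Benjamini-Hochberg) over the 14228 genes tested. SE is the value implied by the F statistic. The GC correction was a robust loess (span 0.5) per library, which treats the trend as known. Its SE and its p-values, adjusted or not, are therefore too small. Alternatives were DESeq2 1.42.0 (size factors and Wald test), upper-quartile factors, limma-voom (limma 3.58.1), 2 filters, a block on replicate number and each library left out in turn. The edgeR fit, with and without GC correction, was also run on simulated counts with few changed genes. The simulated GC trend was absent or the same in all edited libraries, unlike that of the data. No result here rests on that run. R 4.3.3 and Python 3.11.15 were used. Between replicates counts differed by more than sampling noise (chi-square per degree of freedom 2.45 or more).

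The members and gene lists were chosen with earlier results of these data known, so no p is given over a list. Named genes are the members, all other family genes, MIEN1, the 4 smallest p of each list and, for the members with the largest rise and fall, the 3 nearest patterns. ZYX, SLC12A9, AL691442.1 and the markers fall outside this rule and were named for overlap or cell identity. Of 212 list entries 1 had no identifier.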

Additional observations from a re-analysis of the deposited data

Results flagged for a closer look

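In 2 of 28 group-wise sets of 4 libraries (14 tested family genes in each group) 1 library lay far from the other 3, and chance gives about 1 in 20. EFNA4 was at 12.6 CPM in MIEN1_KO replicate 4, against 9.34 to 9.84 CPM in the other edited libraries. EFNA5 was at 29.7 CPM in WT replicate 4, against 30.6 to 30.7 CPM in the other WT libraries, where the other 3 values lie unusually close together.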

How the results depend on the processing

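Of the 10 members, 9 kept their side of the threshold under all 18 alternatives, and EPHB4 did not. EPHB4 was at -0.01 with the GC correction (-0.0097, and -0.0114 in the replicate block with GC correction) and at 0.07 with a least-squares curve in the GC correction, which was added after the data were seen (adjusted p = 0.314). Members called numbered 7 or 8 (5 or 6 higher, 2 lower) under every alternative, 7 to 8 when 1 library was left out. Among other named genes, ADAM10 turned to 0.0168 with the least-squares curve. Over all genes, that curve gave 4111 higher and 1905 lower (68.3% of called genes higher against 50.2%), and upper-quartile factors gave 2468 and 3752 (39.7%). The cause was not tested. A replicate block left 8 members called, and 3002 genes higher and 2982 lower. The correlations of same-numbered deviations were -0.25, 0.54, 0.17 and 0.04. The value of 0.54, for replicate 2, was the highest of any WT and MIEN1_KO pair, while WT replicate 1 was closest to MIEN1_KO replicate 4 (0.53). These deviations still hold the GC trend, so they cannot decide whether the numbers pair the libraries. The 8 family genes below the filter had at most 17 counts each over all libraries, too few to be tested.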

Other observations

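The protein-coding genes closest in pattern to the 2 extreme members, by the mean absolute difference of log2 CPM relative to the WT mean over 8 libraries (10027 genes compared, mean log2 CPM of at least 2), are given here. Nearest to EPHB6 were SPNS2, a sphingosine-1-phosphate exporter (mean difference 0.03, 108.7 to 247.9 CPM), SH3TC1 (0.05, 18.7 to 41.1 CPM) and the mitochondrial carrier SLC25A22 (0.06, 95.3 to 211.7 CPM), with transcripts of 64.4%, 63.7% and 63.7% GC. Their log2 fold changes were 1.19, 1.13 and 1.152, and 0.80, 0.76 and 0.78 with the GC trend removed. Nearest to EPHB3 were EHD2, a membrane-shaping ATPase of caveolae (0.06, 117.0 to 60.8 CPM), CKAP4 (0.06, 19.9 to 10.7 CPM) and SGSM3 (0.07, 93.5 to 52.6 CPM), at -0.94, -0.89 and -0.83. These are likenesses over 8 libraries that share the same 2 groups.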
